A study of Mus musculus with 14 samples.

Results

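The genes described here handle heme and iron in the liver. They are 10 genes, Hmox1, Blvra, Blvrb, Hamp, Slc40a1, Tfrc, Cp, Hp, Hpx and Fth1, out of 19938 genes that had a probe set of their own on the array. A row of the array was taken for a gene when it was annotated to that gene symbol and to no other, and each of the 10 genes had 1 such probe set, so that no choice between probe sets was needed. Gene expression was measured in flash-frozen liver of 14 male C57BL/6 mice, 24 weeks old and kept on a high-fat diet over 20 weeks. The HFM group (n = 7) received mesenchymal stem cells (MSCs), and the HFS group (n = 7) received saline, which part of the study's methods calls PBS. Livers were taken 24 hours after the injection, which was given into a tail vein. The MSCs were human bone marrow cells from a single donor that carried a GFP label, so that the HFM mice had received a xenograft, and the saline mice are a control for the injection but not for the cells of a mouse or another human donor. The high-fat diet was shared by both groups, and no chow-fed or uninjected mice enter the comparison. The study's methods state that 1 sample of each group was damaged in transit, which left 7 of 8.

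Each array held RNA from 1 mouse, and the values are log2 expression as the authors normalized it between arrays. They ran from 1.33 to 14.06 over all probe sets, with array medians of 4.24 to 4.35, and any pair of arrays correlated at 0.970 to 0.991 across probe sets, which are not independent replicates. The precision of what follows is set by the number of arrays, 7 per group. All 10 measured hepatocyte markers were above the median of the arrays, and albumin (Alb), the brightest of their probe sets, was at 13.43 ± 0.05 (SD, HFM) and 13.52 ± 0.06 (HFS), as the label of liver tissue requires. Since the arrays read whole liver, more cells of a type and more RNA per cell cannot be told apart in any of the values.

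Heme that leaves broken red cells is toxic when free, and the liver takes it up and breaks it down. Haptoglobin (Hp) binds free hemoglobin and hemopexin (Hpx) binds free heme in the plasma, both made by hepatocytes. Heme oxygenase 1 (Hmox1) opens the heme ring, which yields biliverdin, carbon monoxide and iron. The biliverdin reductase Blvra turns this biliverdin into bilirubin, and Blvrb is a second reductase that acts on another form of biliverdin. The iron that is set free is stored in ferritin (Fth1 is its heavy chain) or leaves the cell through ferroportin (Slc40a1), after which ceruloplasmin (Cp) oxidises it so that transferrin can carry it. Hepcidin (Hamp), a liver hormone that is induced by iron loading and by inflammation, binds ferroportin and closes this exit, and the transferrin receptor (Tfrc) brings iron back into cells. Kupffer cells, the macrophages of the liver sinusoids, take up old red cells and are a main site of Hmox1 and ferroportin.

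To show what lies before the start of the hormone gene and of the heme carrier, the 250 bases before the RefSeq start site were read for Hamp, for Hamp2 (the second mouse hepcidin gene, whose level is described further on) and for Hpx, from RefSeq on GRCm38.p6. These windows were at chr7:30944030-30944279 for Hamp, chr7:30924182-30924431 for Hamp2 and chr7:105600117-105600366 for Hpx, each on the minus strand. A window was held for 7 of the 10 genes, and none was held for Hmox1, Slc40a1 and Hp. Capitals mark the letters of any of 3 motifs that were searched on both strands.

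Hamp: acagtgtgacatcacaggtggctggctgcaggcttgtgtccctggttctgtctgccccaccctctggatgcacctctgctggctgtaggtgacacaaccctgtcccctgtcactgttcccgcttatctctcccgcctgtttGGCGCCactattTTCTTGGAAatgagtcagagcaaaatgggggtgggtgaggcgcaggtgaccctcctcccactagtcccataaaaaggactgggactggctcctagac

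Hamp2: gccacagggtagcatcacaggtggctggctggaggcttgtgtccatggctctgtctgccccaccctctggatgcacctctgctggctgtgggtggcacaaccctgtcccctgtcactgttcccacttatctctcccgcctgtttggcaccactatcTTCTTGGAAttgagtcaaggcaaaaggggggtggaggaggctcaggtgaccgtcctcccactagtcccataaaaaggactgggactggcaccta

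Hpx: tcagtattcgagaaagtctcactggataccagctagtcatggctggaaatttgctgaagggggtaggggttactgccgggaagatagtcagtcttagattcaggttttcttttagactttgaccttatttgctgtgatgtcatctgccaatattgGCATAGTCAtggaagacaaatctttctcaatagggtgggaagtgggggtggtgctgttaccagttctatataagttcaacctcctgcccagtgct

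The motifs were TTCNNNGAA, the palindrome read by STAT proteins, GGCGCC, a core read by SMAD proteins downstream of bone morphogenetic proteins, and TGACNNNGC, the core of the antioxidant response element read by NRF2, and no match overlapped another in these windows. The Hamp window held TTCNNNGAA from base -97 and GGCGCC from base -109, counted from the start site. The Hamp2 window held TTCNNNGAA from base -94 and no GGCGCC, although both windows were 89.7% identical (227 of 253 aligned positions). The Hpx window held no TTCNNNGAA and held TGACNNNGC, on the opposite strand, from base -95. Of the 7 genes with a window, 1 had TTCNNNGAA (Hamp), 2 had GGCGCC (Hamp and Tfrc), 2 had TGACNNNGC (Hpx and Blvra), and Blvrb, Cp and Fth1 had none. Of all 32851 promoter windows of this length, 7.02% held TTCNNNGAA, 9.59% held GGCGCC and 10.2% held TGACNNNGC. A match of letters is a description of the window and was not tested for binding.

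The main comparison asked whether expression of the heme and iron genes differed between MSC-treated and saline-treated livers. Hmox1, Hpx and Hp, the enzyme that breaks heme down and both plasma carriers, were higher in HFM livers at an unadjusted p under 0.05, by 0.52, 0.29 and 0.27 on the log2 scale (1.44-fold for Hmox1 and 1.22-fold for Hpx). None of the 10 genes passed an adjusted p of 0.05 (limma, Benjamini-Hochberg over 23410 probe sets, adjusted p of 0.714 to 0.997), and the share of all probe sets that passed it was 0%. The smallest adjusted p over all probe sets was 0.305, and 1514 of them had an unadjusted p under 0.05. At an unadjusted p under 0.05, 3 of the 10 genes were higher, 0 were lower and 7 were neither, beside 3.57% of all probe sets higher and 2.9% lower (836 and 678). With the median of each array subtracted, that split over all probe sets became 1265 higher and 397 lower, and the median difference moved from 0.00 to 0.03. Of the 10 differences, 8 were above 0, with a median of 0.06, where 51.4% of all probe sets were above 0. Hp and Hpx moved together between mice (r = 0.96 with group means subtracted), so that these counts include genes that are not independent. The ranges of the HFM and HFS mice overlapped for each of the 10 genes, whereas 0.0256% of all probe sets had every HFM mouse above every HFS mouse and 0.0299% the reverse. The study had placed Hmox1, Hp and Hpx in functional categories that it chose on these same samples, so that their direction here is not independent evidence.

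**Figure D1:**
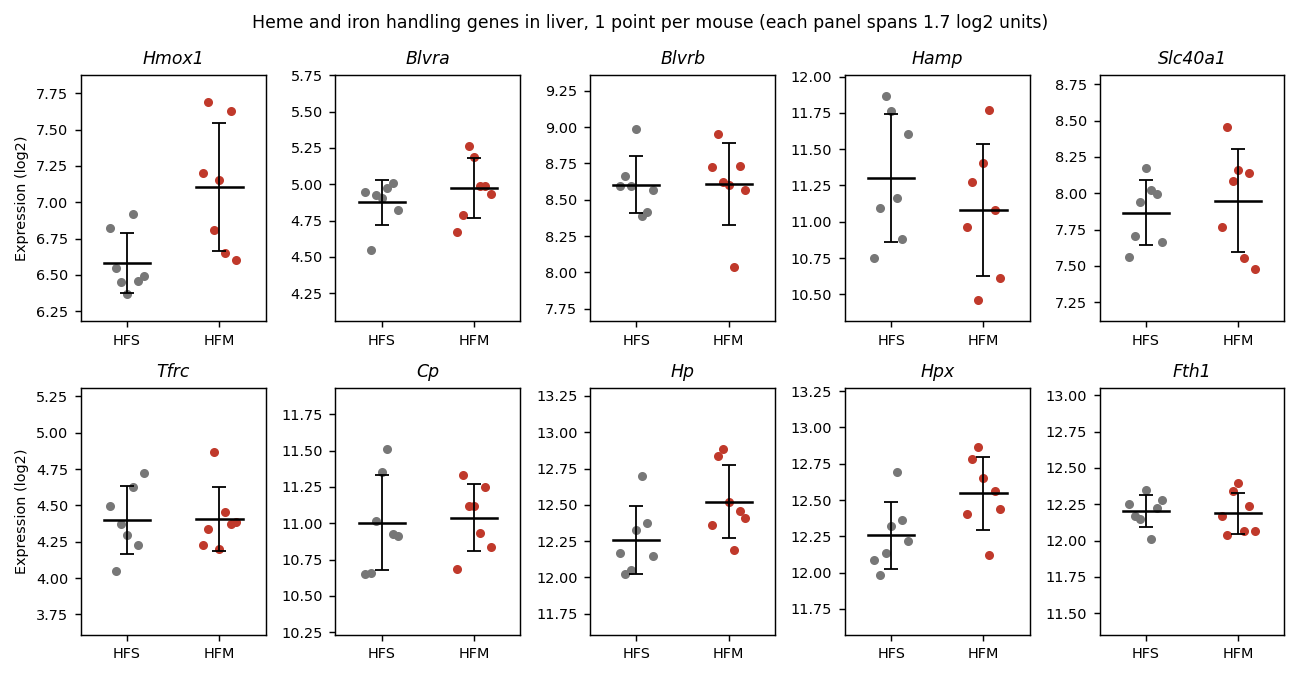
Log2 expression (y axis) of each of the 10 genes in HFS (grey) and HFM (red) livers, 1 point per mouse, with the mean (long bar) and SD (error bars), n = 7 per group, every panel spanning the same number of log2 units. Hmox1 was between 6.37 and 6.92 in HFS and between 6.60 and 7.69 in HFM mice, and the groups overlapped in every panel.

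Hmox1 was measured at 6.60 to 7.69 in HFM livers (median 7.16) and at 6.37 to 6.92 in HFS livers (median 6.49). Each of the 7 HFM mice was above the HFS mean, and 4 of them were above every HFS mouse. The HFM mean was 7.11 ± 0.44 (SD, n = 7) and the HFS mean was 6.58 ± 0.21 (n = 7), a difference of 0.52 (SE 0.16, 95% interval 0.20 to 0.85). The unadjusted p was 0.00341 and the adjusted p was 0.714 (limma), and the two-sided exact permutation test over mice gave p = 0.0152 without adjustment. By limma, Hmox1 was the only one of the 10 genes to pass the filter of the study's methods used without its correction. That filter is a p under 0.01 and at least 1.2-fold, which 0.453% of all probe sets passed upwards and 0.243% downwards by limma. Hp and Hpx missed the filter by their limma p (0.0332 and 0.0211) and not by their fold. The study's methods left the fold filter off data sent to pathway software. Its functional categories of differentially expressed genes hold Hp and Hpx too, so that its selection, unlike the limma fit, included both. The reason for this disagreement was not tested. The pass of Hmox1 depended on the moderated p of limma, where the study had used Partek. The two-sided exact permutation p of 0.0152 was over 0.01, and with the unmoderated test (SE 0.18) Hmox1 missed the filter as well. The HFM mice fell far apart: HFM2 (7.69) and HFM6 (7.63) were the highest, and HFM3 (6.81), HFM5 (6.65) and HFM7 (6.60) lay within the range of the saline mice. The SD of Hmox1 was 2.14 times as large in HFM as in HFS livers, and its SD within groups was above that of 97.7% of all probe sets.

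Biliverdin, the product of Hmox1, is the substrate of Blvra. Neither Blvra nor Blvrb, the second reductase, differed beyond its spread. Blvra was measured at 4.67 to 5.26 in HFM livers (median 4.99) and at 4.55 to 5.01 in HFS livers (median 4.93), near the medians of the arrays. The groups overlapped in part, with 2 HFM mice above every HFS mouse and 1 HFS mouse below every HFM mouse, and the difference was 0.10 (SE 0.09, 95% interval -0.09 to 0.29, limma adjusted p = 0.870). Blvrb was measured at 8.04 to 8.96 in HFM livers (median 8.62) and at 8.39 to 8.99 in HFS livers (median 8.60). The HFS range lay nearly inside that of HFM, and the difference was 0.00 (SE 0.12, 95% interval -0.24 to 0.24, limma adjusted p = 0.997). Hmox2, the constitutive heme oxygenase, was at 6.91 ± 0.14 (HFM) and 6.82 ± 0.08 (HFS), a difference of 0.09 (SE 0.07, limma adjusted p = 0.837). Hmox1 had the largest difference of these 4 genes, but no difference between them was tested.

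Among the plasma carriers, hemopexin was measured at 12.12 to 12.86 in HFM livers (median 12.56) and at 11.98 to 12.69 in HFS livers (median 12.22). The ranges overlapped, but 6 of 7 HFM mice were above the HFS mean. The means of Hpx were 12.55 ± 0.25 and 12.26 ± 0.23, a difference of 0.29 (SE 0.11, 95% interval 0.05 to 0.53). Its unadjusted p was 0.0211 and its adjusted p was 0.768 (limma), with p = 0.0490 in the two-sided exact permutation test.

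Haptoglobin was measured at 12.19 to 12.88 in HFM livers (median 12.46) and at 12.03 to 12.70 in HFS livers (median 12.17). As for Hpx, 6 of 7 HFM mice were above the HFS mean, HFM5 being the exception, and the HFS mouse above most HFM mice was HFS5. The means of Hp were 12.52 ± 0.25 and 12.26 ± 0.23, a difference of 0.27 (SE 0.12, 95% interval 0.02 to 0.51). Its unadjusted p was 0.0332 and its adjusted p was 0.770 (limma), and the two-sided exact permutation test gave p = 0.0664. The Hp difference missed an unadjusted p of 0.05 without any one of HFM2, HFM3, HFS1, HFS2, HFS3 and HFS7, being lowest without HFM3 (0.20). The Hpx difference missed it without HFM3 and without HFS2 (0.24 in both cases), and so in each of these cases 1 of the 10 genes was left at an unadjusted p under 0.05, Hmox1.

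Cp, the copper protein that oxidises iron in plasma, is also made by hepatocytes and was measured at 10.68 to 11.33 in HFM livers (median 11.12). The HFS livers spanned 10.65 to 11.51 (median 10.93) and so enclosed every HFM mouse. The difference of Cp was 0.03 (SE 0.13, 95% interval -0.24 to 0.31, limma adjusted p = 0.971).

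**Figure D2:**
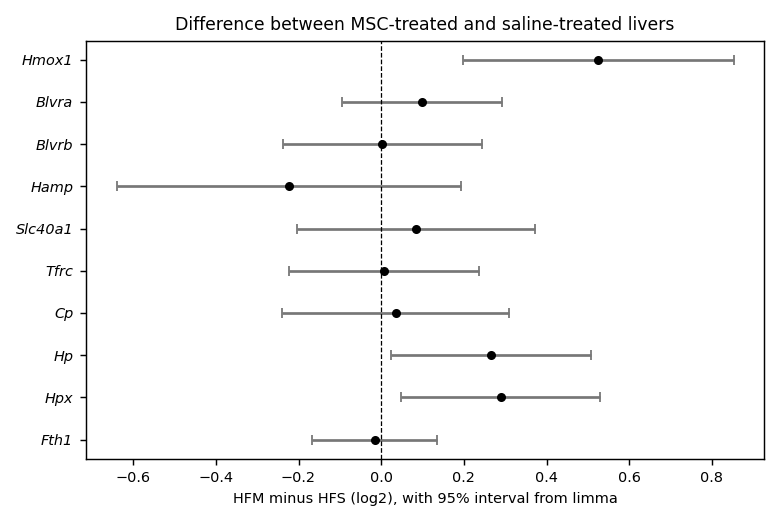
Difference between MSC-treated and saline-treated livers in log2 units (x axis) for each of the 10 genes (y axis), with the 95% interval from limma as bars, n = 7 per group. The unadjusted intervals of Hmox1 (0.20 to 0.85), Hpx (0.05 to 0.53) and Hp (0.02 to 0.51) lay above 0, and those of the other 7 genes included 0.

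Hamp was the gene with the largest difference below 0, but its groups overlapped over most of their range. It was measured at 10.46 to 11.77 in HFM livers (median 11.08) and at 10.75 to 11.87 in HFS livers (median 11.16). The difference was -0.22 (SE 0.20, 95% interval -0.64 to 0.19), with an adjusted p of 0.865 (limma) and p = 0.363 in the two-sided exact permutation test. Only 2 of 7 HFM mice, HFM3 and HFM7, were below every HFS mouse, and HFM5, the mouse lowest for Hp and Hpx, was the highest HFM mouse for Hamp. Its SD within groups was above that of 99.0% of all probe sets, so that the interval allows a change of up to 0.64 downwards. Hamp2 was at 6.42 ± 0.42 (HFM) and 6.41 ± 0.40 (HFS) (difference 0.00, SE 0.18). The windows before Hamp and Hamp2 were 89.7% identical, but their transcripts and probes were not compared. A part of either signal may have come from the other gene, which was not tested.

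Ferroportin (Slc40a1), the exporter that hepcidin closes, was measured at 7.48 to 8.46 in HFM livers (median 8.08) and at 7.56 to 8.17 in HFS livers (median 7.94). The HFM mice lay on both sides of the HFS range, with HFM7 lowest and HFM2 highest. The difference was 0.08 (SE 0.14, 95% interval -0.20 to 0.37, limma adjusted p = 0.927).

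The transferrin receptor (Tfrc), whose transcript is stabilised when cells lack iron, was near the array medians, at 4.20 to 4.87 in HFM livers (median 4.37) and 4.05 to 4.72 in HFS livers (median 4.37). Both groups covered much the same range, and the difference was 0.01 (SE 0.11, 95% interval -0.22 to 0.24, limma adjusted p = 0.994).

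Ferritin heavy chain (Fth1), which oxidises iron as it is stored, was measured at 12.04 to 12.39 in HFM livers (median 12.17) and at 12.01 to 12.35 in HFS livers (median 12.22). It had the narrowest spread of the 10 genes, below that of most probe sets (29.2% had a smaller SD). The difference was -0.02 (SE 0.07, 95% interval -0.17 to 0.14, limma adjusted p = 0.976), and its sign turned with the median of each array subtracted (0.011) and with array weights (0.015). For the light chain of ferritin, Ftl1, the difference was 0.03 (SE 0.08, limma adjusted p = 0.963). Tfrc and both ferritin chains are controlled by iron largely through their transcripts' stability and translation, and ferritin protein was not measured on the arrays.

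The other genes of heme and iron handling were taken from 7 lists, of which 78 genes were measured. None passed an adjusted p of 0.05 (limma, 0.714 at the lowest). At an unadjusted p under 0.05, 6 were higher in HFM livers (7.69%), 3 were lower (3.85%) and 69 were neither, beside 3.42% higher and 3.14% lower over all genes with 1 probe set each. The median difference was 0.03, with 52 above 0 and 26 below 0, where 50.5% of all genes were above 0. These counts moved with single mice: those higher fell to 3 without any one of HFM2, HFM6 and HFS3. Those lower became 0 without HFM2, HFS1 or HFS2, 1 without HFM4, HFM6 or HFS4, and 5 without HFM3. Among the genes counted as higher or lower with all mice, the two-sided exact permutation p was over 0.05 for Hjv (0.0845), Fbxl5 (0.0653), Flvcr1 (0.0606) and Mafk (0.0507). It was under 0.05 for Lrp1 (0.00117), Erfe (0.00874), Tfr2 (0.0192), Pgrmc1 (0.0221) and Iscu (0.0443).

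**Figure D3:**
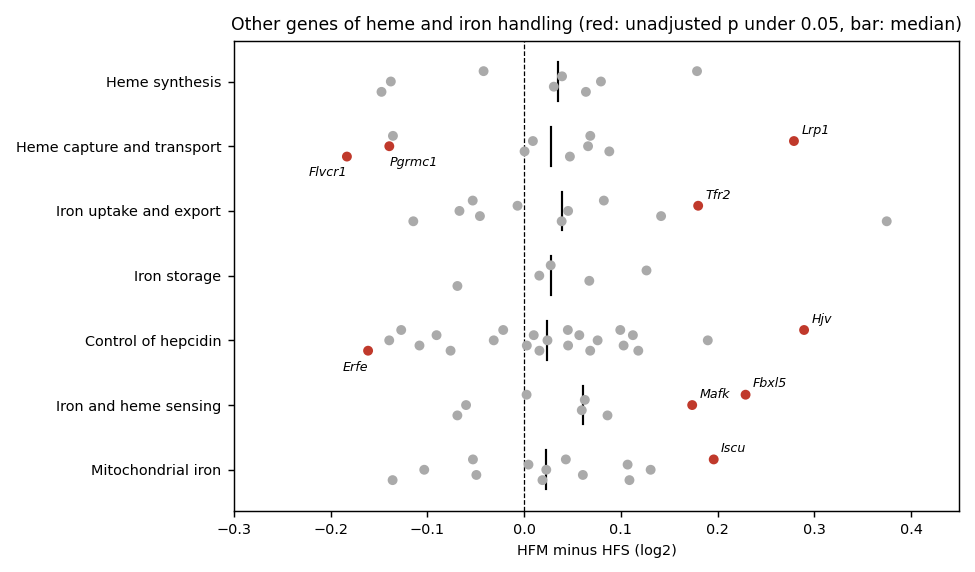
Difference between MSC-treated and saline-treated livers in log2 units (x axis) for 78 further genes in 7 lists (y axis, points spread vertically within a list so that they can be told apart), with genes at an unadjusted p under 0.05 in red and named and the median of each list as a black bar. The medians of the lists lay between 0.02 and 0.06, and Lrp1 was the highest of the named genes of heme capture, at 0.28.

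Of the genes that capture, move or break down heme (10 measured, 1 higher, 2 lower, 7 neither), Lrp1 stood highest. Lrp1 is the receptor that takes up hemopexin with its heme, and it was measured at 9.03 to 9.43 in HFM livers (median 9.23) and at 8.71 to 9.16 in HFS livers (median 8.95). All 7 HFM mice were above the HFS mean, and the ranges still overlapped. The means were 9.23 ± 0.13 and 8.95 ± 0.14, a difference of 0.28 (SE 0.07), with an unadjusted p of 0.00131 and an adjusted p of 0.714 (limma), and p = 0.00117 in the two-sided exact permutation test. Lrp1 too was in a functional category the study chose on these samples. Cd163, the macrophage receptor that takes up haptoglobin with hemoglobin, was at 4.52 ± 0.42 (HFM) and 4.46 ± 0.39 (HFS), a difference of 0.07 (SE 0.18). Flvcr1, a heme exporter, had a difference of -0.18 (SE 0.08, unadjusted p = 0.0438 by limma), and Pgrmc1, a heme-binding membrane protein, one of -0.14 (SE 0.06, unadjusted p = 0.0432 by limma). All 7 HFM mice were below the HFS mean for both genes. Flvcr1 had 2 probe sets, of which the brighter was used, and Pgrmc1 had 1. With the mean over the probe sets of a gene, 2 genes of all 7 lists were lower instead of 3.

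Heme synthesis (8 measured) had no gene at an unadjusted p under 0.05. The smallest p values were those of Alas2, the first enzyme of the pathway in red cell precursors, with a difference of 0.18 (SE 0.12), and of Cpox, a later mitochondrial step, with -0.15 (SE 0.11). Alas1, the first enzyme of the pathway in hepatocytes, was at 9.28 ± 0.41 (HFM) and 9.42 ± 0.44 (HFS) (difference -0.14, SE 0.19), and was named here after its value was seen.

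Of the genes of iron uptake and export (11 measured, 1 higher, 0 lower), Tfr2 was higher at an unadjusted p under 0.05. Tfr2 senses iron-loaded transferrin on hepatocytes, and it was at 8.38 ± 0.12 (HFM) and 8.20 ± 0.12 (HFS), a difference of 0.18 (SE 0.07, limma adjusted p = 0.767). The next was Slc39a14, a transporter of iron that is not bound to transferrin, with 0.14 (SE 0.07, limma adjusted p = 0.786). Transferrin itself (Trf) differed by 0.05 (SE 0.07, limma adjusted p = 0.922). Steap4, a metalloreductase that is also on the acute phase list, had the largest difference of the 78 genes, 0.37, with an SE of 0.24, and was named here after its value was seen. In iron storage (5 measured) no gene had an unadjusted p under 0.05. The smallest p values belonged to Ncoa4, which delivers ferritin to lysosomes (difference 0.13, SE 0.08), and to mitochondrial ferritin, Ftmt (-0.07, SE 0.08). Ftmt was at 3.81 (HFM) and 3.88 (HFS), below the array medians.

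Genes that control hepcidin (23 measured) were 1 higher, 1 lower and 21 neither. Hemojuvelin (Hjv), the co-receptor through which bone morphogenetic proteins induce hepcidin, was at 8.07 ± 0.15 (HFM) and 7.78 ± 0.39 (HFS), a difference of 0.29 (SE 0.13, limma adjusted p = 0.770). Erythroferrone (Erfe), a hormone of red cell precursors that lowers hepcidin, was at 4.21 ± 0.15 and 4.37 ± 0.07, a difference of -0.16 (SE 0.07, limma adjusted p = 0.768), close to the array medians in both groups. Targets and ligands of the bone morphogenetic protein branch were named after their values were seen: Id1 differed by 0.02 (SE 0.08), Smad7 by -0.08 (SE 0.07) and Bmp6 by -0.11 (SE 0.06). Stat3, the factor of the inflammatory branch, differed by 0.19 (SE 0.10, limma adjusted p = 0.793), and it was likewise named after its value was seen.

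Among sensors of iron and heme (8 measured, 2 higher, 0 lower), Fbxl5, which marks an iron regulatory protein for breakdown, had a difference of 0.23 (SE 0.10) and Mafk, a partner of NRF2 and BACH1, one of 0.17 (SE 0.08), with a limma adjusted p of 0.770 for each. Bach1, the heme-sensing repressor of Hmox1, was named after its value was seen and differed by -0.07 (SE 0.12, limma adjusted p = 0.936). In mitochondrial iron handling (13 measured, 1 higher, 0 lower), Iscu, the scaffold on which iron-sulfur clusters are built, had a difference of 0.20 (SE 0.08, limma adjusted p = 0.768). Nfs1, which supplies the sulfur, had one of 0.13 (SE 0.08, limma adjusted p = 0.808).

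Markers of macrophages and of the acute phase lay mostly above 0, as did Hmox1, Hp and Hpx. The study had already reported several of these markers on these same samples, among them Adgre1, Cd5l, Cd68, Marco, Saa1, Orm1 and Lcn2. The shared direction is therefore not independent evidence. Of 15 macrophage markers, all 15 were above 0 with a median difference of 0.28. By limma, 5 had an unadjusted p under 0.05 (Mpeg1, Cd5l, C1qb, Cd68 and Marco). Over all genes with 1 probe set each, 3.42% were higher at that p and 50.5% were above 0, the background for every marker list here. For most of the 15 markers HFM2 was the highest HFM mouse and HFS5 the highest HFS mouse, so that the markers are not independent. The two-sided exact permutation p was over 0.05 for C1qb (0.0711), Cd68 (0.0763) and Marco (0.0624). It was under 0.05 for Mpeg1 (0.0297) and Cd5l (0.0472). Mpeg1 differed by 0.52 (SE 0.17). Cd5l, a secreted Kupffer cell protein with the brightest probe set of the 15 markers, differed by 0.56 (SE 0.21). The mean of the 15 markers, relative to all mice, ran from -0.24 to 0.70 in HFM and from -0.48 to 0.47 in HFS livers, with HFM2 and HFS5 highest in their groups, and 1 of the 15, Cd14, was below the array median.

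Of 18 acute phase genes outside the 10 described here, 17 were above 0 with a median difference of 0.26. By limma, 7 had an unadjusted p under 0.05 (Saa1, Saa2, Orm1, Orm2, Lcn2, Itih4 and Serpina3n). Among these 7, the two-sided exact permutation p was over 0.05 for Orm1 (0.0676) and Orm2 (0.0594) and under it for the rest. Saa1 differed by 2.21 (SE 0.61) and Saa2 by 2.12 (SE 0.61), both serum amyloid A genes that are induced in hepatocytes in inflammation, and Fgg, the brightest probe set of the list, by 0.06 (SE 0.10). The mean of this list ran from -0.0024 to 0.51 relative to all mice in HFM livers, and from -0.86 (HFS3) to 0.58 (HFS5) in HFS livers. None of these genes passed an adjusted p of 0.05 (limma, 0.714 at the lowest), and the part of macrophage number or of inflammation in the Hmox1, Hp and Hpx values was not tested.

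Markers of other cell types were counted in the same way. Of 5 measured red cell markers (of 13 listed), 1 was above 0 and none had an unadjusted p under 0.05, the smallest being those of Car1 (0.30, SE 0.18) and Epb42 (-0.13, SE 0.10). The red cell list mean ran from -0.18 to 0.18 in HFM livers and from -0.14 to 0.20 in HFS livers. Of 10 neutrophil markers 9 were above 0, 1 had an unadjusted p under 0.05 (Cxcr2, 0.23, SE 0.10), 7 were below the array median, Csf3r differed by 0.25 (SE 0.14), and S100a9, the brightest, by 0.28 (SE 0.30). The neutrophil list mean ran from -0.19 to 1.18 in HFM livers, highest in HFM2, and from -0.24 to 0.41 in HFS livers, highest in HFS5. Of 8 sinusoidal endothelial markers 5 were above 0 and 1, Stab1, had an unadjusted p under 0.05 (0.18, SE 0.07), while Lyve1 differed by 0.27 (SE 0.13) and Fcgr2b, the brightest, by -0.07 (SE 0.09). Of 10 hepatocyte markers 7 were above 0 and none had an unadjusted p under 0.05 by limma, with -0.09 (SE 0.05) for Alb and 0.10 (SE 0.07) for F2. For Alb all 7 HFM mice were below the HFS mean, 5 of them below every HFS mouse, and the two-sided exact permutation test gave p = 0.00816 without adjustment.

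To compare mice within groups, the group means were subtracted and each gene was correlated with the mean of the macrophage and of the acute phase list over 14 mice (20 relations, permutation within groups, Benjamini-Hochberg). Hmox1 went with the macrophage mean at r = 0.71 (permutation p = 0.00578, adjusted 0.0385), and its Spearman rho was 0.58 (permutation p = 0.0464, adjusted 0.133). Within HFM mice r was 0.87 and within HFS mice it was 0.50. Without the mice farthest from the median of the markers, HFM2 and HFS5, r was 0.52 (permutation p = 0.121, adjusted 0.594), so that the call was lost with these mice while r stayed above 0.

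Slc40a1 followed the macrophage mean at r = 0.70 (permutation p = 0.00894, adjusted 0.0447) with rho = 0.69 (permutation p = 0.0136, adjusted 0.129), although its group means differed by 0.08. Hp had r = 0.76 (permutation p = 0.00441, adjusted 0.0385) with rho = 0.66 (permutation p = 0.0173, adjusted 0.129), and Hpx had r = 0.74 (permutation p = 0.00416, adjusted 0.0385) with rho = 0.63 (permutation p = 0.0238, adjusted 0.129). Without HFM2 and HFS5, r was 0.61 for Slc40a1, 0.52 for Hp and 0.54 for Hpx, with an adjusted permutation p of 0.594 for each, so that these calls too were lost while r stayed above 0. None of the 20 relations had an adjusted p under 0.05 by rank. With the acute phase mean, Hp had r = 0.61 (permutation p = 0.0164, adjusted 0.0620) and Hpx had r = 0.57 (permutation p = 0.0299, adjusted 0.0803). Hmox1 had r = 0.42 with it (permutation p = 0.0321, adjusted 0.0803), and Slc40a1 had 0.17. Whether any of these genes followed one list more than the other was not tested. Hamp had the lowest r of all 20, -0.47 with the acute phase mean (permutation p = 0.0963, adjusted 0.214), and Fth1, Tfrc, Blvra and Blvrb stayed between -0.36 and 0.22 with either list. For Blvrb the value over all mice joined opposite signs within groups: r with the macrophage mean was 0.77 in HFM and -0.62 in HFS mice, and r with the acute phase mean was 0.47 and -0.75. This difference between groups was not tested.

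**Figure D4:**
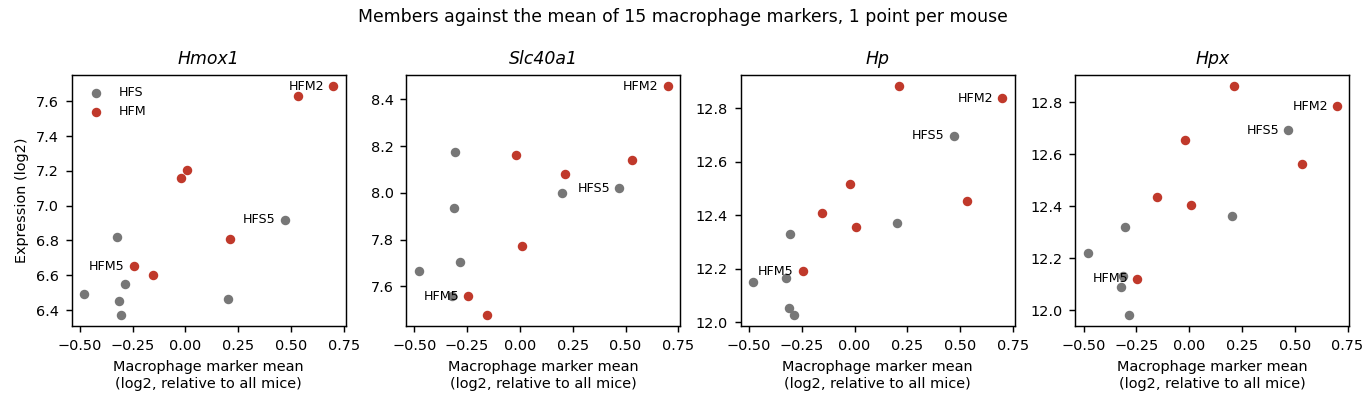
Log2 expression (y axis) of Hmox1, Slc40a1, Hp and Hpx against the mean of 15 macrophage markers in log2 units relative to all mice (x axis), as measured and without subtraction of group means, 1 point per mouse, HFS grey and HFM red. HFM2 and HFS5, named in the panels, have the highest marker means of their groups (0.70 and 0.47), and HFM5 is the lowest of HFM (-0.24).

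Among the 10 genes themselves (45 pairs, group means subtracted, 14 mice), r ran from -0.34 to 0.96 and 3 pairs had an adjusted permutation p under 0.05. Hp and Hpx were all but parallel at r = 0.96 (permutation p = 1e-05, the smallest that the permutations can give) and rho = 0.94, and r was 0.95 within HFM and 0.97 within HFS mice. Without HFM5 and HFS5 r was still 0.94. Slc40a1 and Cp followed at r = 0.77 (adjusted permutation p = 0.0153) and rho = 0.82 (adjusted permutation p = 0.0189), and Cp and Hpx at r = 0.75 (adjusted permutation p = 0.0434) and rho = 0.81 (adjusted permutation p = 0.0222). Without the farthest 2 mice these were 0.80 and 0.73, with an adjusted permutation p of 0.0574 and 0.0591. Hmox1 had r = 0.37 with Hp and 0.40 with Hpx, neither at an adjusted permutation p under 0.05, and Hamp had -0.34 with Hp.

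**Figure D5:**
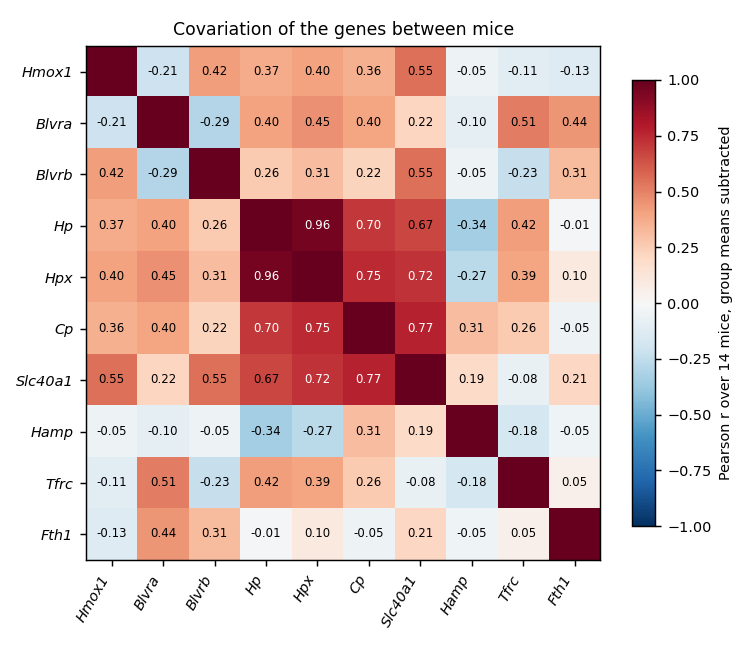
Pearson r of each pair of the 10 genes over 14 mice with group means subtracted (colour and printed value, from -1 in blue to 1 in red). Hp and Hpx (0.96) formed the tightest pair, Cp and Slc40a1 were next to them (0.77 with each other), and Hamp, Tfrc and Fth1 had mostly weak relations with the rest.

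Single mice gave the extremes of several genes at once. HFM2 was the highest HFM mouse for Hmox1, Blvrb, Slc40a1 and Cp, and HFM3 was the highest for Blvra, Tfrc, Hp and Hpx. HFS5 was the highest HFS mouse for Hmox1, Cp, Hp and Hpx, and HFS2 was the lowest for Blvra, Tfrc, Hp and Hpx. HFM5 was the lowest HFM mouse for Blvrb, Hp and Hpx. Without HFS5 the difference of Hp was 0.34 and that of Hpx 0.36, the highest of any mouse left out.

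The genes most alike in pattern were sought for each of the 10 among 9972 brighter genes, by Pearson r over 14 mice with group means subtracted. For Hmox1 they were Arsb (r = 0.89), Bnip3l (0.88) and P2rx4 (0.87), and the differences of these genes between groups were 0.11, 0.04 and 0.17. For Hp they were Hpx (0.96), St6gal1 (0.93) and Cfb (0.92), and for Hpx they were Hp, Cfb (0.93) and Trf (0.92). For Slc40a1 they were Inpp4a (0.93), Lcp1 (0.92), a leukocyte actin-bundling protein, and Entpd4 (0.91). For Cp they were Atp8b1 (0.91), Enpp3 (0.91) and Nrbp1 (0.88), and for Hamp they were Ptbp1 (0.88), Ubxn8 (0.86) and Dhrs11 (0.83). For Blvra they were Poc1b (0.88), Acad9 (0.88) and Nsd1 (0.85), and for Blvrb they were Rpl13 (0.92), Chchd5 (0.87) and Pef1 (0.86). For Tfrc they were Hmgn5 (0.92), Mtln (0.91) and Larp1b (0.86), and for Fth1 they were Fstl1 (0.88), Nnt (0.86) and Krt18 (0.84). With 9972 genes compared over 14 mice, high values of r arise in number, and these are given as a description.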

How the data were processed

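Liver RNA of 14 mice, 7 HFM and 7 HFS, was hybridised to Affymetrix mouse gene arrays, 1 mouse per array. The deposited values are log2 expression, which the authors summarized per probe set and normalized between arrays in Affymetrix Expression Console. The labels name RMA and the study's methods name PLIER. Versions of Expression Console and of these algorithms, and the genome build: not given in the sources used here. Partek was then applied by the authors with a p under 0.01, Bonferroni correction and 1.2-fold, the last of these not for data sent to pathway software.

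From the deposited log2 values, limma 3.58.1 in R 4.3.3 (lmFit and eBayes, no covariate) was fitted on 23410 probe sets with a gene symbol (21789 with 1 symbol, 1621 with several) of 35556, with no filter on signal and Benjamini-Hochberg adjustment over all of them. 12146 without a symbol were left out. A call was an adjusted p under 0.05. Of a gene in the wider lists, the probe set with the highest mean was used. Exact permutation tests were two-sided over all 3432 assignments of mice (smallest possible p 0.000583), and correlations used 100000 permutations within groups. Only where group means were not subtracted did the permutations run across both groups. P values of the group differences weigh them against the spread between mice. The limma p also draws on a variance moderated over all fitted probe sets.

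The 10 genes and the lists were chosen with earlier results of these data known. The genes named are the 10, the 2 with the smallest p of each list, Hmox2, Hamp2, Trf, Tfr2, Ftl1, the most abundant marker of each cell type list, and the 3 most alike genes of each of the 10. Genes at an unadjusted p under 0.05 that the text counts are also named. A few others, such as Cd163 and those marked as named after their value was seen, lie outside these rules. The fits were tested on simulated data. Alternatives were a replicate block, quantile normalization, subtraction of each array's median, the probe sets brighter than the median one, all probe sets, a trended and robust prior, array weights, an unmoderated test, the mean over probe sets of a gene, and each mouse left out. The annotation of the 10 genes was checked against the RefSeq table, with 10 of 10 matched.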

Additional observations from a re-analysis of the deposited data

Results flagged for a closer look

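In 3 of 20 groups of 7 mice (10 genes in 2 groups), 1 mouse lay far from the rest by Dixon's test, where chance gives about 1 in 20 groups. Blvra in HFS2 was at 4.55, with the next mouse at 4.82. Blvrb in HFM5 was at 8.04, with the next at 8.57. Tfrc in HFM3 was at 4.87, with the next at 4.45. None of these genes differed between groups at an unadjusted p under 0.05 with or without that mouse (limma), and the reason for the distance was not tested.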

How the results depend on the processing

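Hmox1 kept its direction and an unadjusted p under 0.05 in 9 of 9 alternatives (0.49 to 0.59) and 14 of 14 omissions of a mouse (0.43 to 0.61). Hpx did so in 9 of 9 and 12 of 14 (0.24 to 0.36), and Hp in 6 of 9 and 8 of 14 (0.20 to 0.34). Hp missed it with quantile normalization (0.25) and the unmoderated test (0.27). None of the 10 genes reached an adjusted p under 0.05 in any of these fits, and over all probe sets the number was 0 except without HFS6 (1). Signs turned where differences were near 0: Blvrb with quantile normalization (-0.010), Fth1 with median subtraction (0.011) and array weights (0.015), and Tfrc with array weights (-0.078). On leaving out single mice the differences ran from -0.055 to 0.098 (Blvrb), -0.00076 to 0.16 (Slc40a1), -0.024 to 0.12 (Cp), -0.050 to 0.0092 (Fth1) and -0.070 to 0.062 (Tfrc). Tfrc was not among the brighter probe sets and has no value there.

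Of the 10 genes, 1 to 3 were higher on leaving out single mice; of the 78 others, 3 to 9 were higher and 0 to 5 lower. Of the 78, 1 was lower with median subtraction and with array weights, 0 among the brighter probe sets, and 3 were higher with the unmoderated test. Over all probe sets 583 to 1265 were higher and 499 to 1230 lower on leaving out single mice, and 532 and 217 among the brighter probe sets, where fewer were tested.

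Replicate numbers did not pair the mice (correlations of deviations of -0.203 to 0.139, and 0 of 7 HFM mice correlated best with their number). With the replicate block the difference of Hp was 0.27 and no longer had an unadjusted p under 0.05, and 2 of the 10 genes were higher, while 6 of the 78 others were higher and 0 lower.

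Without the 2 farthest mice, r with the macrophage mean was 0.52 (Hmox1), 0.61 (Slc40a1), 0.52 (Hp), 0.54 (Hpx), -0.11 (Tfrc) and 0.29 (Fth1), r of Tfrc with the acute phase mean was -0.025, and the pairs Slc40a1 with Cp and Cp with Hpx had 0.80 and 0.73. Without subtraction of group means, r with the acute phase mean passed an adjusted p of 0.05 for Hmox1 (0.65), Hp (0.72) and Hpx (0.71), and Cp with Hpx no longer did (0.66). In that setting mice were permuted across both groups, and r includes the difference between groups. With median subtraction Cp with the macrophage mean (0.67) and Hp with the acute phase mean (0.62) passed it, and with quantile normalization Hmox1 (0.68), Slc40a1 (0.68), Hp (0.63) and Hpx (0.63) with the macrophage mean no longer did. The cause of these changes was not tested. With 7 mice per group and 1 probe set per gene, differences of about 0.2 in genes as variable as Hamp were not detectable. Blvra, Tfrc, Erfe and Cd163 lay near the array medians and Ftmt lay below them, and no detection values were used.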
